A study of Mus musculus with 12 samples.

Results

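In ATAC-seq, a transposase places sequencing adapters into accessible DNA, and the fragments pile up as peaks where chromatin is open. The regions described here are the ATAC-seq peaks of mouse embryonic stem cells (ESCs) of the Suv39h dn line, compared between whole mitotic cells and mitotic chromosomes purified by flow sorting. They were taken as all peaks of the 2 lists of each preparation, without selection by height. The 4 lists held 120403 of the 438517 peaks in the 12 lists of the series, and merging peaks that overlapped or touched gave 100731 regions. Suv39h dn ESCs lack both Suv39h1 and Suv39h2, and the series holds 1 line of this genotype (DN57) and 1 wild-type (WT) line (WT26), each assayed as asynchronous cells, mitotic cells and sorted mitotic chromosomes with 2 libraries a group. ESCs of both lines were grown with leukaemia inhibitory factor. Mitotic cells and chromosomes both came from cultures arrested with demecolcine and collected by shake-off, so the arrest is common to both sides of the comparison. The mitotic cells went into the transposase mixture as cells, whereas chromosomes were first released from the cells in a polyamine buffer, stained with a Hoechst dye and with Chromomycin A3, sorted and pelleted. Release, staining, sorting and the loss of the surrounding cell therefore cannot be told apart in the differences below. According to the Methods both lines are male.

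During mitosis most transcription stops, chromosomes condense and many transcription factors leave DNA, while some promoters and enhancers stay accessible, a behaviour known as mitotic bookmarking. Suv39h1 and Suv39h2 trimethylate histone H3 at lysine 9 (H3K9me3) at pericentric heterochromatin, which in mouse is built from arrays of the major satellite repeat, next to the minor satellite of the centromere. CTCF is the zinc-finger protein that anchors chromatin loops, and Oct4, Sox2, Klf4 and Esrrb are the transcription factors that hold ESCs in the pluripotent state. Purified chromosomes allow the chromosome itself to be assayed away from cytoplasm and from any cell that was not in mitosis.

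The lists differed widely in length. Suv39h dn mitotic libraries held 1746 and 14328 peaks, and chromosomes libraries held 59444 and 44885. The mean difference in log2 peak number, chromosomes minus mitotic, was 3.37, with an SD of 2.15 between mitotic libraries and 0.287 between chromosomes libraries (n = 2 each). Both chromosomes lists were longer than both mitotic lists. With 4 libraries there are 6 arrangements, so the exact permutation test (two-sided) cannot give a p-value below 0.333, which it gave here, and no difference between these preparations can pass 0.05 whatever its size, and each is described by the values of the 4 libraries. Nothing in the labels says that the 2 libraries of a group came from separate cultures, so their spread may be technical. Median fragment numbers at the summit were 7 in both mitotic lists and 5 and 6 in the chromosomes lists. The lowest local background was 0.204 and 0.213 fragments per base in mitotic cells and 0.199 and 0.268 in chromosomes, and the lists give no depth. The peaks covered 168 and 1633 kb in mitotic cells and 5950 and 4764 kb in chromosomes. Mitotic library 1 is so short that results below are also read from mitotic library 2 alone.

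Most regions were called in 1 preparation alone. Chromosomes alone held 85891 regions (85.3%), mitotic cells alone 11098 (11.02%) and both preparations 3742 (3.72%). Of the 14840 regions of mitotic cells, 25.2% were also called on chromosomes, and of the 89633 regions of chromosomes, 4.18% were also called in mitotic cells. With mitotic library 2 alone against both chromosomes lists these shares were 25.6% of 14281 and 4.08% of 89637. Regions called in both chromosomes libraries and neither mitotic library numbered 12089, regions in all 4 libraries 496, and regions in both mitotic libraries and neither chromosomes library 447. With mitotic library 1 left out, 1742 regions were in the other 3 libraries, 12134 in both chromosomes libraries alone and 10624 in mitotic library 2 alone.

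**Figure D1:**
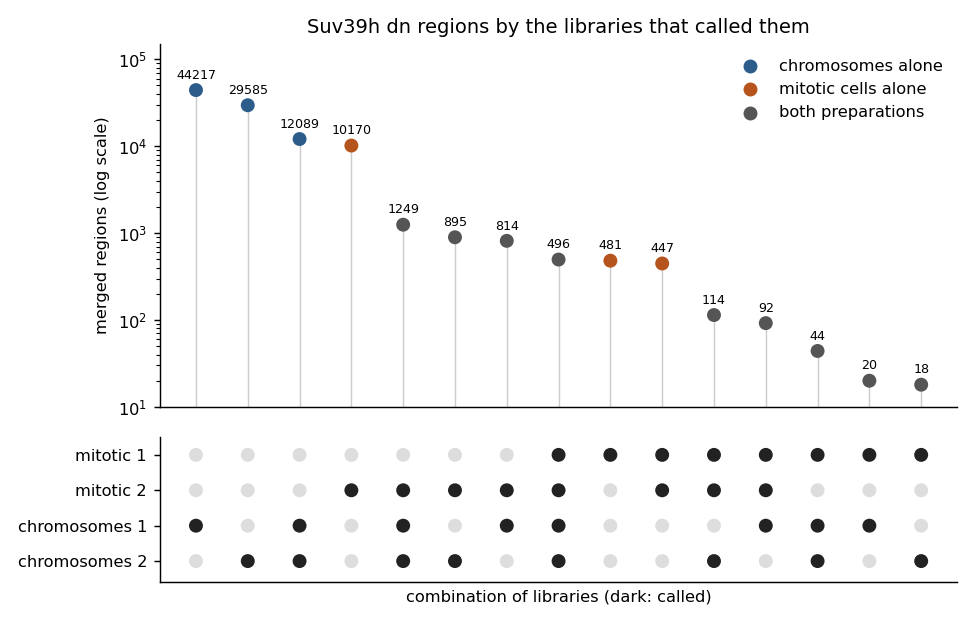
Merged Suv39h dn regions (log scale) for each combination of libraries, with dark dots under each point marking the libraries that called them and colour marking the preparation. Regions of a single chromosomes library are the most frequent combination (44217 and 29585), and the 496 regions of all 4 libraries are fewer than the 12089 called in both chromosomes libraries alone.

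At equal list lengths, libraries of one preparation overlapped each other more than they overlapped the other preparation. Over all peaks, of the 1746 peaks of mitotic library 1, 67.2% overlapped a peak of mitotic library 2, against 34.1% and 36.5% for chromosomes libraries 1 and 2. Of the 44885 peaks of chromosomes library 2, 31.3% overlapped chromosomes library 1 and 6.11% overlapped mitotic library 2. Mitotic library 2 was the exception, with 8.03% of its peaks in the short mitotic library 1 and 17.7% and 18.8% in the chromosomes libraries. List length sets part of such shares, so the lists were also shortened to the same number of peaks by p-value. Among the 1746 strongest peaks of each list, mitotic libraries shared 37.1% to 38.3% with each other, chromosomes libraries shared 47.8% to 47.9%, and the shares between preparations lay between 17.5% and 21.4%. At the length of mitotic library 2, 9.35% and 11.1% of its peaks overlapped the chromosomes lists, while those lists shared 29.7% with each other. Where peaks did overlap, their summits were close, with a median distance of 41 bp and 37 bp from mitotic library 2 to the chromosomes libraries and 33 bp between chromosomes libraries.

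Stronger peaks were shared more often. Each list was split into 10 equal bins by the authors' fold enrichment. Of the lowest bin of mitotic library 2, 9.85% and 10.3% overlapped a peak of chromosomes libraries 1 and 2, and of the highest bin 45.6% and 49.7%. In chromosomes library 1, the share found in mitotic library 2 was 1.72% in the lowest bin and 13.7% in the highest, and the share found in chromosomes library 2 was 9.51% and 60.1%. The strongest peaks of chromosomes library 1 were thus mostly not called in mitotic library 2, although most recurred in the other chromosomes library.

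Several of the highest regions of each class were repeated DNA. By a fixed rule, the 5 regions of each class with the highest mean percentile of fold were taken, and 121 bp of mm10 around the summit are shown for those that differ most in kind, read from the plus strand of the RefSeq GRCm38 sequence. Capitals mark any of the 12 motifs searched below. The sequences are, in order, the first and the second region of all 4 libraries, the first of both mitotic libraries alone, and the first and second of both chromosomes libraries alone:
chrX:143483000-143483109, intergenic: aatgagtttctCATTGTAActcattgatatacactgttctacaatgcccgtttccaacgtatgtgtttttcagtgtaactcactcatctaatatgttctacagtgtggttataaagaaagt
chr13:112578173-112578308, intron of Il31ra: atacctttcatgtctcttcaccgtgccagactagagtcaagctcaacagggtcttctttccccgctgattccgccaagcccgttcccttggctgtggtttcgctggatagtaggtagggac
chr16:10975089-10975261, 445 bp from a start site of Litaf: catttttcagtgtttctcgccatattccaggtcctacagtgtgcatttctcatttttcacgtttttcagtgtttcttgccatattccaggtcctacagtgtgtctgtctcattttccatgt
chr2:164689114-164689277, intergenic near Wfdc13: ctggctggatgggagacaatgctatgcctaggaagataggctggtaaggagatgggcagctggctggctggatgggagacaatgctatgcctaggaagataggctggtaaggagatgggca
chr14:8501869-8501985, intron of 4930452B06Rik: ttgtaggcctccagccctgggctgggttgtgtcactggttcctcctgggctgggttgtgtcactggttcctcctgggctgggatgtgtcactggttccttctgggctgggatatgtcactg

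The chrX region had folds of 59.2 and 58.4 in mitotic cells and 53.7 and 54.1 on chromosomes, and it was also called in all 4 WT mitotic and chromosomes libraries. Of the other 4 named regions of the class, chr6:103649059-103649291 and chr9:24542018-24542160 shared 60 and 20 of its 185 words of 16 bases. The letters of these 3 regions are those of the mouse minor satellite, a name given here from knowledge of that repeat and not from a repeat annotation. In the same way the chr13 region and the fifth region, chr1:102628201-102628320, carry letters of the 28S ribosomal RNA. The chr13 region had folds of 48.6 and 51.7 in mitotic cells and 55.4 and 55.5 on chromosomes. The chr9 region was less even, with folds of 55.2 and 55.3 in mitotic cells and 32.3 and 43.4 on chromosomes. Since such repeats have many copies, reads from any copy can be placed on the few in the assembly, so the position of each is uncertain.

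The Litaf region carries letters of the major satellite, named in the same way. Its folds were 35.3 and 26.9 in mitotic libraries, with no call on Suv39h dn chromosomes, and it was called in both WT mitotic libraries and in 1 of 2 WT chromosomes libraries. Peaks whose windows shared at least 10 words of 16 bases with it numbered 73 and 76 in mitotic libraries and 42 and 51 in chromosomes libraries, although the chromosomes lists are longer. The numbers of the preparations did not overlap (n = 2 each), and in WT they were 73 and 75 in mitotic cells and 36 and 50 on chromosomes. This family was picked through a region not called on Suv39h dn chromosomes, so its counts are a description and not a test. Families picked through regions of all 4 libraries had 7 and 7 peaks against 6 and 6 (minor satellite, chrX region). For the 28S letters they had 6 and 7 against 9 and 8 (chr13 region) and 7 and 7 against 6 and 7 (chr1 region). Of the 75 regions of the major satellite family in the merged set, 39 were called in all 4 libraries, 17 in both mitotic libraries alone and 0 in both chromosomes libraries alone. Where called, the median fold was 4.19 and 4.60 in mitotic cells and 6.27 and 5.37 on chromosomes. These are few copies of a repeat whose arrays lie mostly outside the assembly.

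The highest regions called on chromosomes alone had another kind of sequence. The chr2 region had folds of 29.0 and 41.5 and the chr14 region 30.6 and 33.6 on the chromosomes libraries. Both were called in both WT chromosomes libraries, in neither WT mitotic library and in neither asynchronous Suv39h dn list, and in both windows a short unit follows itself in tandem. A window was counted as tandem when at least 80% of its bases matched the same window shifted by 5 to 100 bp. Among the 100 highest regions of the class 35 were tandem, against 13 of the 100 highest in all 4 libraries and 8 of the 100 highest in both mitotic libraries alone, but these reach down to different mean percentiles of fold (99.2, 98.1 and 76.2). Over the whole classes the order was another, with tandem windows in 3.46% of the 12089 regions of both chromosomes libraries alone, 9.07% of the 496 of all 4 and 2.46% of the 447 of both mitotic libraries alone. Over the 1746 strongest peaks of each list, 14.4% and 11.5% were tandem in chromosomes libraries and 4.30% and 2.98% in mitotic libraries, and of 200 bp windows taken every 100 kb across the genome 0.325% were. Over all peaks the groups overlapped, at 2.62% and 1.81% on chromosomes and 4.30% and 0.677% in mitotic cells. Without mitotic library 1 the chromosomes mean was 1.54 percentage points above mitotic library 2.

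Mitotic cells held a larger share of peaks at promoters. Summits within 1 kb of an annotated start site made up 47.9% and 49.7% of the mitotic lists and 26.7% and 35.0% of the chromosomes lists, a difference of -18.0 percentage points with SDs of 1.32 and 5.90 (n = 2 each; exact two-sided permutation p = 0.333, the smallest possible). The groups did not overlap. Against mitotic library 2 alone the difference was -18.9 points. With peaks of q at or under 1e-05 the mitotic libraries held 36.3% and 61.1% and the chromosomes libraries 35.2% and 40.8%, so the groups then overlapped. In absolute numbers chromosomes held more promoter peaks, since 13312 and 13708 of their summits lay within 1 kb of a protein-coding start site, against 736 and 6526 in mitotic cells. In place of promoters, chromosomes peaks more often lay in exons away from start sites (5.80% and 6.42%, against 1.89% and 2.11%), in introns (29.7% and 27.3%, against 20.8% and 20.5%) and between genes (37.9% and 31.3%, against 29.4% and 27.6%).

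The position of summits within promoters differed as well. Just upstream of a protein-coding start site, where general and gene-specific transcription factors assemble, the 250 bp held 27.8% and 28.8% of all mitotic peaks and 5.09% and 6.84% of chromosomes peaks. Among peaks within 1 kb of a start site, 66.0% and 63.3% of the mitotic summits lay in those 250 bp, against 22.7% and 22.4% on chromosomes. Downstream of the start lay 22.0% and 25.1% of such summits in mitotic cells and 62.6% and 60.8% on chromosomes. The median position moved from -66 and -54 bp in mitotic cells to 69 and 68 bp on chromosomes, that is from before the start site into the transcribed part. The libraries of a preparation lay close together in each of these values, and the preparations did not overlap. In WT the medians were -63.5 and -60 bp in mitotic cells and 68 and 64 bp on chromosomes.

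**Figure D2:**
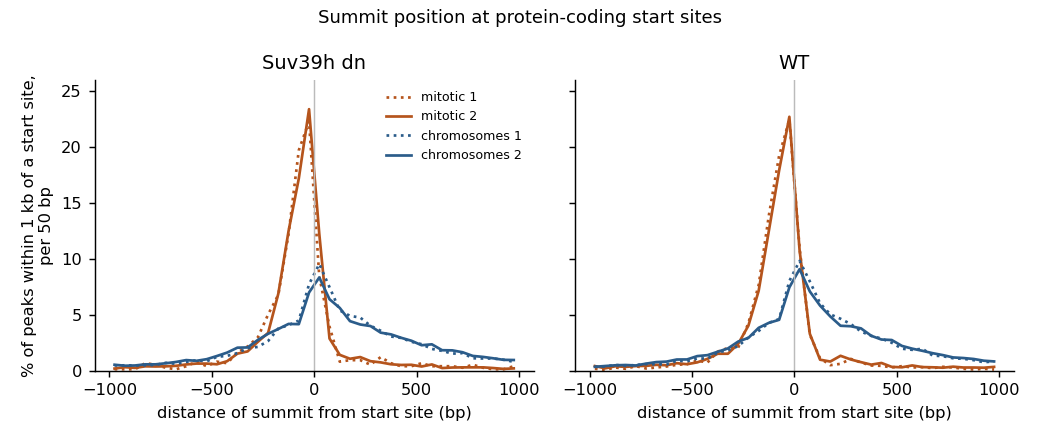
Position of summits relative to the nearest protein-coding start site (bp, negative upstream), as the percentage of the peaks within 1 kb in bins of 50 bp, for Suv39h dn and WT libraries. Mitotic lines rise to a narrow peak just upstream of the start in both libraries of both lines, while chromosomes lines are broad and lie mostly downstream (62.6% and 60.8% in Suv39h dn).

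Base composition moved with these positions. Mean GC content in 200 bp around summits was 53.4% and 56.0% in mitotic cells and 57.5% and 57.9% on chromosomes, a difference of 2.94 percentage points (SDs 1.83 and 0.252, n = 2 each; exact two-sided permutation p = 0.333). Away from start sites it was 49.4% and 51.2% against 56.1% and 56.4%, while windows every 100 kb across the genome had 41.6%. CpG dinucleotides, the sites of DNA methylation, were less frequent on chromosomes, with an observed over expected ratio of 0.333 and 0.371 against 0.495 and 0.488 in mitotic cells. The repeat-masked share of the windows was 24.2% and 17.9% in mitotic cells and 30.1% and 24.9% on chromosomes. Over all peaks, those of chromosomes were thus GC-rich but CpG-poor next to those of mitotic cells. The CpG ratio was 0.538 in windows at protein-coding start sites and 0.175 in windows every 100 kb, under both preparations. It was not taken away from start sites, and the part of the promoter share in it was not tested. GC content differs between the preparations, and its part in what is called on either side was not tested.

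Sequence motifs at summits differed between the preparations, CTCF most of the 12 by ratio. A motif was counted when it lay, on either strand, within 100 bp of a summit, and 12 motifs fixed in one list were counted: CTCF by its consensus, NRF1 (GCATGCGC), ETS factors (CCGGAAGT), SP/KLF factors (GGGCGGGG), NFY (CCAATCAG), the cyclic AMP response element CRE (TGACGTCA), YY1 (AAGATGGC), the Oct4 octamer (ATGCAAAT), a word of Sox2 (CATTGTNA), Esrrb (TNAAGGTCA), AP-1 (TGANTCA) and the E-box (CACGTG). The Sox2 word and the octamer were counted apart, and windows that held several motifs entered each count. The CTCF motif stood at 5.38% and 5.37% of mitotic summits and at 0.267% and 0.285% of chromosomes summits, a ratio of means of 19.5. Of 93459 windows at protein-coding start sites 0.281% held it, and of 26477 windows every 100 kb 0.0793%. Away from start sites the shares were 8.35% and 8.62% in mitotic cells and 0.259% and 0.302% on chromosomes.

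The CTCF difference was -5.10 percentage points (SDs 0.00682 and 0.0125, n = 2 each; exact two-sided permutation p = 0.333, adjusted p = 0.333 by Benjamini-Hochberg over 12 motifs). In the 1746 strongest peaks of each list the shares were 5.38% and 2.12% in mitotic cells and 0.172% and 0.115% on chromosomes. In counts, 621 peaks of mitotic library 2 away from start sites held the motif, against 113 and 88 in the far longer chromosomes lists. Asynchronous Suv39h dn ESCs had 5.02% and 5.33% over all peaks, so mitotic cells were near their level and chromosomes were not. The CTCF peaks of mitotic library 2 were weak by fold, with 8.59% of its lowest bin and 2.09% of its highest bin holding the motif.

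The pluripotency words went the same way, with 1 exception. The octamer stood at 1.66% and 2.32% of mitotic summits and 0.299% and 0.281% of chromosomes summits, where the genome windows had 1.82%. Both chromosomes lists and mitotic library 1 thus lay under the share of the genome windows. The Sox2 word stood at 2.35% and 2.39% against 1.04% and 0.896%, with 3.06% in the genome windows. The Esrrb word stood at 0.630% and 0.803% in mitotic cells and at 0.976% and 0.998% on chromosomes, with 1.18% in the genome windows, and was the exception. That order did not hold at q at or under 1e-05, where the shares were 0.976% and 0.683% in mitotic cells and 0.662% and 0.681% on chromosomes, nor away from start sites, where the groups overlapped at 1.10% and 1.22% against 1.10% and 1.18%.

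Motifs of promoter factors were more frequent in mitotic cells too. NFY, which binds CCAAT boxes of cell cycle promoters, stood at 6.19% and 5.41% against 0.885% and 1.03%, and SP/KLF at 9.91% and 14.1% against 3.15% and 3.71%. NRF1, ETS and CRE had ratios of means between 3.20 and 4.22. Windows at protein-coding start sites held NFY at 2.30%, SP/KLF at 13.6%, NRF1 at 1.99%, ETS at 3.53% and CRE at 1.43%. Mitotic lists held a larger share of promoter peaks, and its part in these motif shares was not tested. Away from start sites NFY stayed at 1.87% and 2.62% against 0.631% and 0.679%, while ETS overlapped (0.220% and 0.542% against 0.266% and 0.274%). SP/KLF stood there at 2.64% and 3.5% against 1.21% and 1.29%, NRF1 at 0.769% and 0.778% against 0.319% and 0.394%, and CRE at 0.440% and 0.333% against 0.179% and 0.226%. AP-1 and the E-box were also higher in mitotic cells over all peaks, at ratios of 1.47 and 1.25, and the E-box groups overlapped away from start sites. Over all peaks, only YY1 and Esrrb among the 12 were higher on chromosomes. Away from start sites YY1 was higher there, and so was the mean of the overlapping E-box groups (3.30% against 2.72%). YY1, a zinc-finger factor, stood at 2.75% and 3.60% in mitotic cells and at 4.38% and 4.07% on chromosomes. That difference of 1.05 percentage points was 0.286 at equal list lengths, where the groups overlapped (exact permutation p = 0.667), and 0.298 within 50 bp of the summit. For peaks away from start sites it was 1.90, and 0.264 within 50 bp (exact permutation p = 1). In the 200 bp around summits of chromosomes peaks with the YY1 word away from start sites (2317 and 1500 peaks), 83.5% and 83.4% of bases were repeat-masked. Around all such peaks it was 38.0% and 34.4%. This was not particular to chromosomes, with 78.6% against 29.0% in mitotic library 2 and 83.8% against 36.2% in asynchronous library 2. In mitotic library 1, with 24 such peaks, it was 48.6% against 35.9%. The same exact test gave p = 0.333 and adjusted p = 0.333 for each of the 12 motifs over all peaks.

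**Figure D3:**
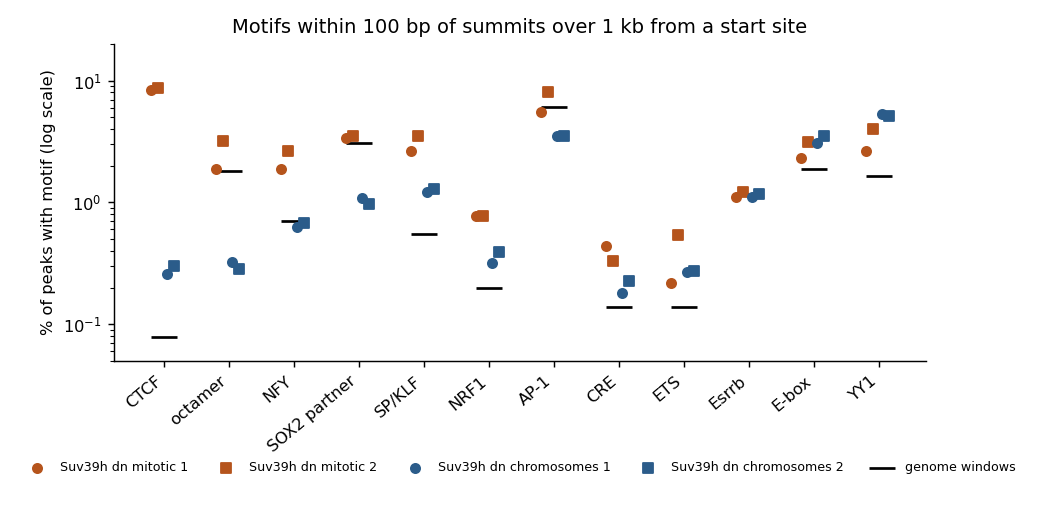
Percentage of peaks with each motif (log scale) among summits over 1 kb from a start site, 1 point for each Suv39h dn library, with a bar for windows every 100 kb of the genome. CTCF lies furthest apart between mitotic cells (8.35% and 8.62%) and chromosomes (0.259% and 0.302%), and YY1 lies higher on chromosomes.

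Example regions show these motifs in mm10. They were chosen after their values were seen, as the 2 peaks of mitotic library 2 for each motif with the highest fold percentile that held the motif near the summit away from start sites, on an autosome, and were called on neither chromosomes library. Capitals mark the motifs found, which are CTCF and NFY in the first, CTCF in the second, and the octamer in the last 2:
chr11:109331425-109331597, intergenic: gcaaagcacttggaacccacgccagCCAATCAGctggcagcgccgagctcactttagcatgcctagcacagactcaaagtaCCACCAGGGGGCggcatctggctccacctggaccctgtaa
chr2:167072209-167072289, intergenic: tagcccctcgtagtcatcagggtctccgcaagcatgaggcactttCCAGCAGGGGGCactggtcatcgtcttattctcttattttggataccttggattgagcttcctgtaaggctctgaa
chr13:47273542-47273634, intergenic: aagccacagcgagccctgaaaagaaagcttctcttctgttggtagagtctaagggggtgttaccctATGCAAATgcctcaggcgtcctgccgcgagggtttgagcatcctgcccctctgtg
chr7:63957178-63957366, intergenic: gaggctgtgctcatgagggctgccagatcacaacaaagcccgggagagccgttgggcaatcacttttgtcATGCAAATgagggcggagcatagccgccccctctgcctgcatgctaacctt

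The chr11 region had folds of 6.50 and 10.7 in mitotic libraries, from 7 and 13 fragments at the summit, and was called in both WT mitotic and both asynchronous Suv39h dn lists and in no WT chromosomes list. The CTCF region on chr2 was called in mitotic library 2 alone of the 4 lists, with a fold of 10.4 and 15 fragments, in 1 of 2 asynchronous lists and in no WT mitotic or chromosomes list. The octamer regions had folds of 8.86 and 8.79 in mitotic library 2, from 10 and 13 fragments, and both were called in both asynchronous lists and in no WT chromosomes list. A matching word is a description of the sequence and not a measured binding event.

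Peaks of mitotic library 2 were found on chromosomes at shares that differed by their motif, but these shares were not matched for peak strength. From its lowest to its highest bin of fold, the share found in chromosomes library 1 rose from 9.85% to 45.6%. Over the same bins the share with the CTCF motif fell from 8.59% to 2.09%. The part of peak strength in the shares below was not tested. Away from start sites, 45 of its 621 CTCF peaks (7.25%) overlapped a peak of either chromosomes library, against 14.5% of the 6580 peaks without the motif and 37.8% of the 7127 promoter peaks. Of its 232 octamer peaks 8 (3.45%) did so. Of its 290 YY1 peaks 106 (36.6%) did so. The asynchronous Suv39h dn lists held 85.0% of the CTCF peaks, 90.5% of the octamer peaks and 87.2% of the peaks without CTCF. Mitotic library 1 held 4.35% of the CTCF peaks, 2.59% of the octamer peaks and 7.43% of the peaks without CTCF. In WT mitotic libraries 1 and 2 these shares were 9.82% and 25.1%, 16.4% and 30.6%, and 18.2% and 36.3%. Lower shares at CTCF and octamer peaks were thus not particular to chromosomes. In the 50 bp at the centre of the CTCF peaks, chromosomes libraries had 1.45 and 0.805 summits per 100 peaks, asynchronous library 2 had 45.6 and WT mitotic library 2 had 12.7. Promoter peaks had 7.49 and 9.28 chromosomes summits per 100 at the centre.

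**Figure D4:**
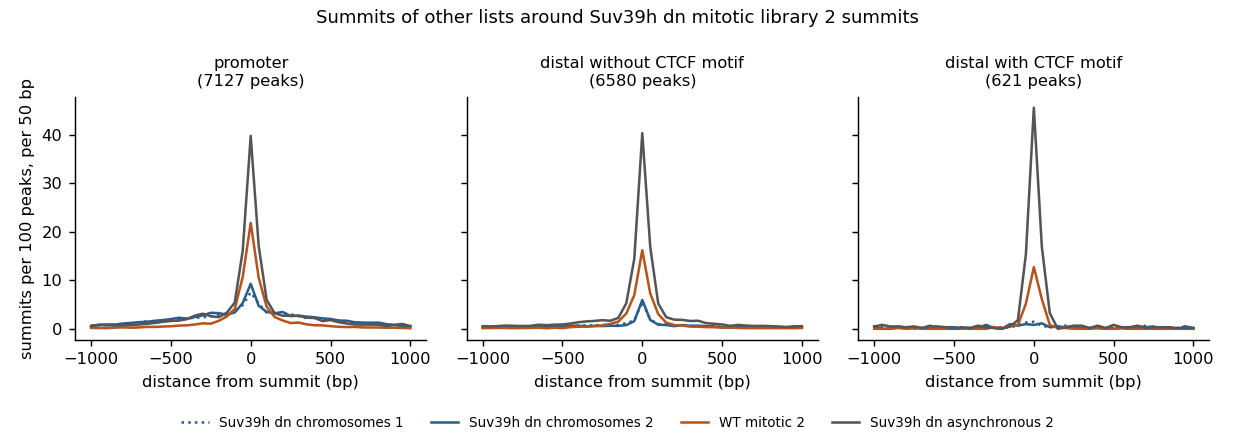
Summits of other lists per 100 peaks in bins of 50 bp, by distance (bp) from the summits of Suv39h dn mitotic library 2, for promoter peaks, distal peaks without and distal peaks with the CTCF motif. At CTCF peaks the chromosomes libraries reach 1.45 and 0.805 at the centre, where asynchronous library 2 reaches 45.6.

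Read against asynchronous cells, the preparations lay far apart. Of the mitotic peaks 89.8% and 89.1% overlapped a peak of asynchronous Suv39h dn ESCs, and of the chromosomes peaks 13.7% and 17.1%, a difference of -74.1 percentage points (SDs 0.475 and 2.41, n = 2 each; exact two-sided permutation p = 0.333). In the 1746 strongest peaks of each list the shares were 89.8% and 99.3% against 46.6% and 52.1%. Regions of both chromosomes libraries alone were found in asynchronous cells in 21.8% of cases and regions of both mitotic libraries alone in 96.9%. Of the 11098 regions of mitotic cells alone, 87.0% were in the asynchronous lists. How many cells in the shake-off were not in mitosis is not part of the lists, and the part of such cells in the mitotic peaks was not tested.

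The classes were then read in the WT lists, which had no part in defining them. Of the 12089 regions of both chromosomes libraries alone, 46.9% and 65.8% overlapped a peak of the WT chromosomes libraries and 1.09% and 2.43% a peak of the WT mitotic libraries. Of the 447 regions of both mitotic libraries alone, 57.3% and 71.6% were called in the WT mitotic libraries and 9.40% and 17.0% in the WT chromosomes libraries. Of the 496 regions of all 4 libraries, 87.7% and 91.5% were in WT mitotic and 86.1% and 95.2% in WT chromosomes lists. Regions called in a single Suv39h dn chromosomes library recurred less, with 13.3% and 19.8% for library 1 and 14.8% and 26.6% for library 2 in the WT chromosomes lists.

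**Figure D5:**
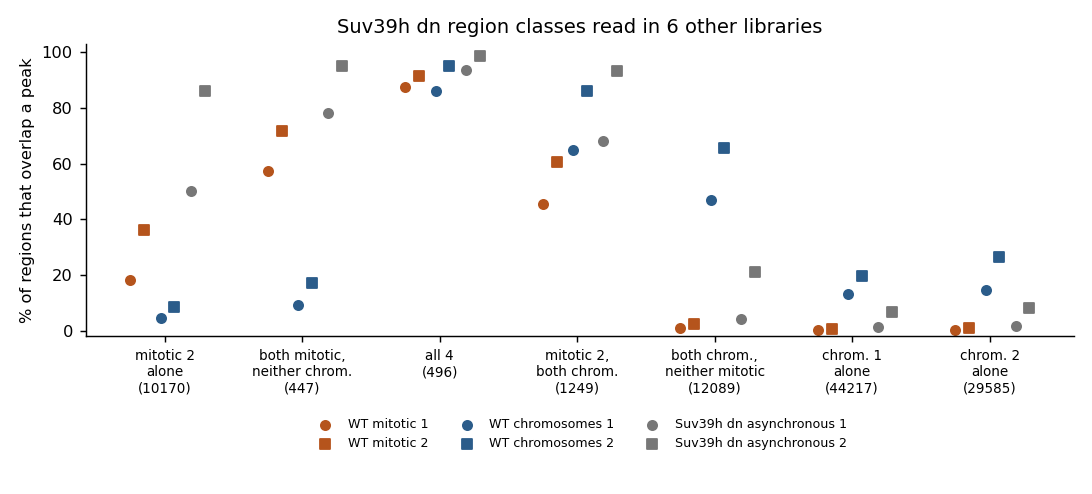
Percentage of Suv39h dn regions of each class that overlap a peak of each WT mitotic, WT chromosomes or asynchronous Suv39h dn library, with the number of regions in brackets. Regions of both chromosomes libraries alone reach 46.9% and 65.8% in WT chromosomes and 1.09% and 2.43% in WT mitotic lists, and the order is the opposite for regions of both mitotic libraries alone.

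The difference between preparations was compared with that of WT by permuting the genotype within each preparation, with 36 arrangements and a smallest two-sided p of 0.0556. The difference in promoter share was -18.0 points in Suv39h dn and -21.0 in WT (exact permutation p = 0.778), that in GC content 2.94 and 2.02 points (p = 0.611, exact permutation), and that in overlap with asynchronous peaks -74.1 and -74.8 points (exact permutation p = 0.778). For peak number it was 3.37 and 2.58 on the log2 scale (exact permutation p = 0.889) and for CTCF -5.10 and -4.27 points (exact permutation p = 0.222). None of these 5 can be called different between lines, and with 2 libraries a group none can be called the same.

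Genes were read by their promoters, called when a summit lay within 1 kb of any annotated start site. Of 21911 protein-coding genes, 3.6% were called in mitotic library 1, 29.1% in mitotic library 2, 42.9% in chromosomes library 1 and 42.2% in chromosomes library 2. Calls in all 4 libraries made up 1.82%, both chromosomes and neither mitotic library 15.3%, both mitotic and neither chromosomes library 0.479%, and mitotic library 2 with neither chromosomes library 5.93%. Shares of gene lists are set beside these values and, since the lists were chosen with results of these data known, carry no test.

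Genes of chromosome structure had called promoters in both preparations. Of 23 genes of condensin, cohesin, cohesin regulators, Ctcf and other proteins of mitotic chromosomes (Top2a, Mki67, Kif4, Kif22), 17 (73.9%) were called in mitotic library 2 and 16 (69.6%) and 18 (78.3%) in the chromosomes libraries. Over all genes these shares were 29.1%, 42.9% and 42.2%. Ncapd2, a condensin I subunit, was called in all 4, with a highest fold of 4.27 and 5.88 in mitotic cells and 5.96 and 5.26 on chromosomes. Mki67, which coats mitotic chromosomes, was also called in all 4, with folds of 4.98 and 5.30 and of 3.59 and 6.33. The Mki67 summits lay at -123 and -151 bp from a start in mitotic cells and at 315 and 459 bp on chromosomes, negative being upstream. Top2a, the topoisomerase of condensed chromosomes, was called in mitotic library 2 (fold 6.67) and on neither chromosomes library, and is named after its values were seen.

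Among 28 mitotic kinase and checkpoint genes, 17 (60.7%) were called in mitotic library 2 and 14 (50%) and 15 (53.6%) on chromosomes, against 29.1%, 42.9% and 42.2% of all genes. Cdc25c, the phosphatase that starts mitosis, had folds of 4.97 and 8.94 in the mitotic libraries, and Cdca8, a subunit of the chromosomal passenger complex, 7.38 and 5.77, and both were missing on chromosomes. Birc5, another subunit of that complex, had folds of 7.21 and 7.05 on chromosomes, and Aurka, a spindle kinase, 5.35 and 4.63, and neither was called in mitotic cells. Of the 28 genes, 6 (21.4%) were called in mitotic library 2 and neither chromosomes library, against 5.93% of all genes, and 5 (17.9%) in both chromosomes libraries and neither mitotic library, near the 15.3% of all genes. The 21.4% starts from a higher base, since the list was called more often in mitotic library 2. Of the 17 genes called there, 6 were on neither chromosomes library, against 1300 of 6372 over all genes.

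Genes of H3K9 methylation, polycomb and DNA methylation had called promoters in both preparations, where all genes had 29.1% in mitotic library 2 and 42.9% and 42.2% on chromosomes. Of 19 H3K9 methylation and HP1 genes, 12 (63.2%) were called in mitotic library 2 and 15 (78.9%) and 14 (73.7%) on chromosomes. In mitotic library 2 and neither chromosomes library were 0 of the 19, against 5.93% of all genes, and 19 genes are too few to tell these apart. Kdm4a, an H3K9 demethylase, was called in all 4 with folds of 6.17 and 9.92 in mitotic cells and 5.58 and 3.72 on chromosomes. Ehmt1, the H3K9 mono- and dimethyltransferase GLP, was called on chromosomes alone with folds of 5.84 and 4.73. Suv39h2 was called on chromosomes alone, with folds of 4.17 and 5.98, and Suv39h1 in none of the 4 lists. A peak at a start site does not show whether the rest of a gene is deleted, so these calls are no check of the genotype. Of 29 polycomb genes 17 were called in mitotic library 2 and 18 and 20 on chromosomes, and of 16 DNA methylation genes 9 and 10 and 10. Dnmt3b, a de novo DNA methyltransferase, was called on both chromosomes libraries alone (folds 6.04 and 4.48).

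Housekeeping promoters were called in both preparations, and some in 1 alone. Of 83 ribosomal protein genes, 51 (61.4%) were called in mitotic library 2 and 42 and 44 on chromosomes, and 13 (15.7%) were called in mitotic library 2 and neither chromosomes library against the 5.93% of all genes. For 67 replication-dependent histone genes, which overlap and share near-identical sequence, the numbers were 43, 33 and 34, with 13 (19.4%). For 76 oxidative phosphorylation genes they were 43, 47 and 37, with 10 (13.2%), and for 39 proteasome subunits 24, 19 and 22, with 3 (7.69%, near the background). All of these lists were called in mitotic library 2 more often than all genes (29.1%), so these shares start from a higher base. Of the genes called in mitotic library 2, 13 of 51 ribosomal and 13 of 43 histone genes were on neither chromosomes library. For oxidative phosphorylation it was 10 of 43, for the proteasome 3 of 24, and over all genes 1300 of 6372. In both chromosomes libraries and neither mitotic library were 8 ribosomal (9.64%), 3 histone (4.48%), 9 oxidative phosphorylation (11.8%) and 2 proteasome genes (5.13%), against 15.3% of all genes. Psmd8, a proteasome subunit, was called in both mitotic libraries (folds 8.25 and 10.0) and was missing on chromosomes.

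Lists of developmental, germline and olfactory receptor genes had more calls on chromosomes than in mitotic library 2. Of 39 Hox genes, which pattern the body axis, 3 were called in mitotic library 2 and 12 and 18 on chromosomes. Of 36 poised lineage factors the numbers were 7, 18 and 13, of 18 germline genes 3, 9 and 6, and of 1092 olfactory receptor genes 2, 38 and 24. In the asynchronous Suv39h dn lists 8 Hox genes (20.5%), 22 poised lineage factors (61.1%), 10 germline genes (55.6%) and 42 olfactory receptor genes (3.85%) were called, against 56.7% of all genes. Mitotic library 1 called 1 olfactory receptor gene and 0 genes of the other lists here. The chromosomes libraries called 42.9% and 42.2% of all genes against 29.1% in mitotic library 2. The direction alone is thus not particular to these lists, but the shares differed by list. For Hox genes they were 30.8% and 46.2% on chromosomes against 7.69% in mitotic library 2. Poised lineage factors had 50% and 36.1% against 19.4%, and germline genes 50% and 33.3% against 16.7%. Olfactory receptor genes had 3.48% and 2.198% against 0.183%, far under the shares of all genes. How far the lists depart from all genes was not tested.

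Of 26 core pluripotency genes, 0 were called in mitotic library 1, 9 (34.6%) in mitotic library 2, 14 (53.8%) in each chromosomes library and 22 (84.6%) in the asynchronous lists. The backgrounds over all genes were 3.6%, 29.1%, 42.9% and 42.2%, and 56.7% in the asynchronous lists. Sall4 was called in mitotic library 2 with a fold of 10.3 upstream of a start, and on chromosomes with 6.51 and 5.57 at 222 and 339 bp downstream. Sox2 was called in mitotic library 2 (fold 6.47) and in both chromosomes libraries (5.42 and 6.08), and Zfp42, the ESC marker Rex1, in mitotic library 2 (7.90) and chromosomes library 1 (7.51). Esrrb followed the same pattern, with folds of 5.35 and 3.41. Klf4 was called on chromosomes alone (4.60 and 4.52), Pou5f1, which encodes Oct4, in chromosomes library 2 alone (4.05), and Nanog in none of the 4 lists, with a call in asynchronous library 2 (5.62). Of 3 lineage genes not used in ESCs, Cdx2 was called on both chromosomes libraries (5.68 and 5.02), Gata6 and T in chromosomes library 1 (4.36 and 3.89), and none in mitotic cells.

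As a check of the labelled cell type, 3 of 10 ESC marker promoters were called in mitotic library 2, 6 and 5 on chromosomes and 9 in asynchronous cells. Fibroblast markers were called at 0 of 6 promoters in mitotic cells, 1 in each chromosomes library and 2 in asynchronous cells, and endoderm markers at 1 of 6 in mitotic library 2, 3 and 2 on chromosomes and 5 in asynchronous cells. Over all genes the asynchronous share was 56.7%, so that 5 of 6 and 9 of 10 both lie above it. A called promoter need not be transcribed.

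Chromosomes of the karyotype held similar shares in both preparations. Over 20 chromosomes (the Y left out for its few peaks), the log2 ratio of shares, sorted chromosomes against mitotic cells, lay between -0.364 on chromosome 9 and 0.396 on chromosome 14. The libraries of the preparations did not overlap on 6 of the 20. Since the exact permutation test gives p = 0.333 to any such split, this number is near what the arrangements alone would give. Chromosome 14 held 4.70% and 3.56% of mitotic peaks and 5.48% and 5.29% of chromosomes peaks, and chromosome 9 held 7.85% and 5.33% against 5.05% and 5.00% (exact two-sided permutation p = 0.333 for each, the smallest possible).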

How the data were processed

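ATAC-seq peak lists of Suv39h dn mitotic cells and sorted chromosomes (2 libraries each) were analysed, grouped by the sample labels. The authors trimmed paired-end reads, aligned them to mm10 with Bowtie2 2.2.9, removed duplicate and mitochondrial alignments kept fragments under nucleosome length, and called peaks with MACS2 in every library separately. For each peak the deposited lists give the fold (a ratio of pileup to background), the −log10 of the p-value and of the q-value, and a score. The lists state no depth. Fragments at summits were recovered from fold and p and matched the deposited p within 0.01 (−log10) for 100% of peaks with a −log10 p under 60. Blacklisted regions were removed according to the Methods, and whether the deposited lists include that step was not tested.

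Peaks that overlapped or touched were merged, and 1 bp of overlap counted as shared. Annotation was GENCODE vM21, sequence was RefSeq GRCm38 (mm10), and coordinates count from 1. Python 3.11.15, numpy 2.4.6, scipy 1.17.1 and pandas 2.3.3 were used, and the functions were tested on simulated lists. Tests were exact two-sided permutations over libraries. Named regions were the 5 of each class with the highest mean percentile of fold, and named genes were taken alphabetically by class from 17 lists, beside 12 fixed genes. Members and lists were chosen with earlier results of these data known. Positions at start sites, exons, repeat masking, tandem repeats and repeat families were added after the data were seen. Alternatives were a stricter q, equal list lengths, other windows and overlaps, a replicate block and leaving out each library.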

Additional observations from a re-analysis of the deposited data

Results flagged for a closer look

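The Esrrb word ordered the preparations oppositely in the 2 lines, with no overlap between preparations in either. In Suv39h dn it stood at 0.630% and 0.803% of mitotic and 0.976% and 0.998% of chromosomes summits, and in WT at 1.00% and 1.16% of mitotic and 0.938% and 0.916% of chromosomes summits. The difference between lines was 0.422 percentage points (exact permutation p = 0.0556 with 36 arrangements, the smallest possible and not adjusted over the 33 measures compared). It was flagged because both libraries of each group lay on one side in Suv39h dn and on the other in WT. Away from start sites the difference between lines was 0.555 points (exact permutation p = 0.0556), with overlap in Suv39h dn. The share of 0.630% in mitotic library 1 rests on 11 of its 1746 peaks. The order in Suv39h dn did not hold at a stricter q or at equal list lengths, and its cause was not tested.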

How the results depend on the processing

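Of the 28 differences in peak number, promoter share, GC content, asynchronous overlap and motif shares, 189 of 196 alternatives kept the direction, and none of the exact permutation tests can reach 0.05. The exceptions were small motif differences (chromosomes minus mitotic, percentage points). Esrrb turned to -0.158 at q at or under 1e-05 and -0.0573 at equal list lengths. Away from start sites, CRE turned to 0.0802 at the stricter q, the E-box to -0.326 at equal lengths, ETS to 0.0504 without mitotic library 2 (lowest of the 4 omissions -0.271), and Esrrb to 0.0401 without that library and 0.0188 without chromosomes library 1 (lowest -0.083). The tandem share, -0.274 over all peaks, turned to 1.01 at the stricter q, 9.31 at equal lengths, 1.54 without mitotic library 1 and 0.131 without chromosomes library 2, with -2.08 without mitotic library 2.

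Counts of regions moved with the lists. Regions in all 4 libraries fell from 496 to 293 at the stricter q, 260 at equal lengths and 269 when each library had to cover 50% of the region, and 889 regions were in all 3 lists with mitotic library 1 left out and the others shortened to the length of mitotic library 2. Regions of both chromosomes libraries alone numbered 1595, 489 and 3288 at the stricter q, equal lengths and the length of mitotic library 2, and those of both mitotic libraries alone 151 at the stricter q. At the length of mitotic library 2, 12219 regions were in that mitotic library alone. Leaving out each library gave 506 to 1742, 12134 to 56777 and 549 to 10624 for the 3 classes, highest without mitotic library 1 (1742 and 10624) and without chromosomes library 2 (56777). The mean share of mitotic peaks on chromosomes was 34.4%, with 21.8% at equal lengths, and the reverse share was 5.35%, with 10.9% at the stricter q, 22.5% at equal lengths and 1.19% without mitotic library 2, up to 6.25%. Promoters called in all 4 fell to 45 at the stricter q, those of both chromosomes libraries alone to 470, and those of mitotic library 2 and neither chromosomes library rose to 2057.

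With a replicate block, the differences in peak number (3.37) and promoter share (-18.0) had an exact sign-flip p of 0.5, the smallest for 2 pairs. The labels share only a number, and the deviations of same-numbered libraries correlated at 0.0634. The difference between lines at the stricter q, an alternative chosen after seeing the data, kept its direction for the 5 measures compared. The lists give no depth, and a region missing from a list was not called, which does not show that it is closed.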
